A study of Homo sapiens with 12 samples.

Results

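Aldo-keto reductases and aldehyde dehydrogenases handle reactive aldehydes and ketones. 10 genes of these families, AKR1A1, AKR1B1, AKR1B10, AKR1C1, AKR1C2, AKR1C3, ALDH1A1, ALDH1A3, ALDH2 and ALDH3A1, were followed by their gene names, out of 58721 genes measured by RNA-seq in 2 human pancreatic cancer cell lines. Pa-Tu-8902 and MIA PaCa-2, named Tu8902 and MiaPaCa2 in the sample labels, carry a short hairpin RNA against GOT1, the cytosolic aspartate aminotransferase, that doxycycline (dox) switches on. Each line gave 3 untreated libraries and 3 libraries treated with dox for 5 days. All 12 libraries came from cells with the hairpin, so an effect of dox and an effect of GOT1 knockdown cannot be told apart here. The labels give the dox concentration as 1 µM/mL and the study's methods give it per mass, and which hairpin the sequenced cells carried is not given in the sources used here. The questions were whether these genes changed with GOT1 knockdown in each line, and how the untreated lines differed.

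Aldo-keto reductases use NADPH to reduce aldehydes and ketones to alcohols, and aldehyde dehydrogenases use NAD or NADP to oxidise aldehydes to carboxylic acids. The ALDH1A enzymes make retinoic acid from retinal, and the AKR1C enzymes reduce steroids, prostaglandins and products of lipid peroxidation. Several of these genes, AKR1B10 and AKR1C1 among them, are known targets of NRF2, the transcription factor of the response to electrophiles.

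GOT1 was at 78.3, 81.5 and 83.4 TPM (transcript abundance relative to the whole library, corrected for transcript length) in untreated Pa-Tu-8902 and at 4.51, 3.29 and 3.68 TPM with dox. In MIA PaCa-2 it was at 44.1, 38.9 and 42.7 TPM without dox and at 1.68, 1.95 and 1.87 TPM with dox. The hairpin target was thus low in all 6 dox libraries. Libraries held 26226537 to 43406137 counts, and a count of 0 allows up to 3 counts, a limit that covers counting error only. The epithelial genes CDH1 and EPCAM reached at least 60 and 543 TPM in untreated Pa-Tu-8902 and at most 0.02 and 0.17 TPM in untreated MIA PaCa-2, which had 3531 TPM or more of the mesenchymal gene VIM. Not every marker followed this split, since untreated MIA PaCa-2 also had 1382 to 1514 TPM of KRT8, 895 to 1054 TPM of KRT18 and 384 to 413 TPM of KRT19, and CDH2 was at 0.75 to 1.16 TPM in untreated Pa-Tu-8902 and at most 0.01 TPM in untreated MIA PaCa-2. The 3 acinar genes checked held no more than 3 counts in any library. Of the 5 fibroblast genes checked, COL3A1, DCN and LUM were at or under 0.14 TPM, while the summed level of the 5 was 3.76 to 6.31 TPM without and 17.6 to 21.3 TPM with dox in Pa-Tu-8902, nearly all COL1A1. In MIA PaCa-2 it was 192 to 248 TPM without and 340 to 398 TPM with dox, nearly all COL1A2. Its part in the results of the 10 genes was not tested.

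Before treatment the lines differed in the level of several members. In Pa-Tu-8902 the order of the median TPM was ALDH1A3 (395), AKR1A1 (63.6), ALDH3A1 (23.3), ALDH2 (3.33), AKR1C3 (1.83), ALDH1A1 (0.88), AKR1B1 (0.80), AKR1C1 (0.42), AKR1C2 (0.12) and AKR1B10 (0.04). Of the 9 pairs of neighbours in that order, 3 overlapped between libraries, namely ALDH1A1 with AKR1B1, AKR1C1 with AKR1C2, and AKR1C2 with AKR1B10. In untreated MIA PaCa-2 the order was ALDH1A1 (427), AKR1C1 (164), ALDH1A3 (92.1), AKR1A1 (51.3), AKR1B1 (33.5), AKR1C2 (1.81), AKR1C3 (1.60), ALDH3A1 (0.48), AKR1B10 (0.07) and ALDH2 (0.05). Here 2 of the 9 pairs overlapped, AKR1C2 with AKR1C3 and AKR1B10 with ALDH2. The 10 genes summed to 426 to 514 TPM in untreated Pa-Tu-8902 and to 720 to 800 TPM in untreated MIA PaCa-2, of which ALDH1A3 took 77.9% to 82.1% in the former and ALDH1A1 took 52.6% to 56.4% in the latter.

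**Figure D1:**
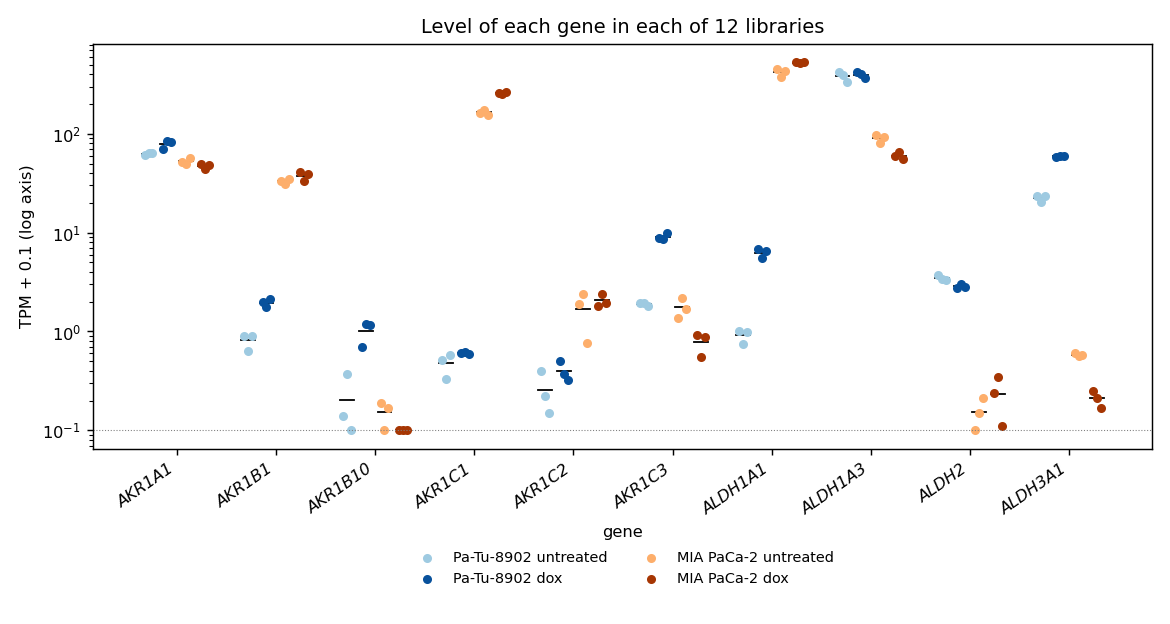
Level of each gene (x axis) as TPM + 0.1 on a log axis (y axis) in each of the 12 libraries, coloured by group, with the group mean as a black line; the dotted line is a TPM of 0. ALDH1A1 and AKR1C1 sit above 150 TPM in MIA PaCa-2 and at or below 6.8 TPM in Pa-Tu-8902, and ALDH3A1 sits above 20 TPM only in Pa-Tu-8902.

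Counts were compared with the quasi-likelihood test of edgeR, and genes were called when the p adjusted by Benjamini-Hochberg was under 0.01 with a fold of 1.5 or more. In untreated Pa-Tu-8902 against untreated MIA PaCa-2, 7 of the 9 members tested differed, 3 higher and 4 lower in Pa-Tu-8902, where 58.1% of all 15608 tested genes differed, 28.9% higher and 29.3% lower. Without AKR1C2 and ALDH2, which reached the count filter only in the line where they were high, 5 of 7 differed, 2 higher and 3 lower. The median log2 fold difference was 0.05 over the 9 members and over these 7, against -0.03 over all tested genes. The groups did not overlap for 8 of the 9, where 81.7% of all tested genes had groups that did not overlap. AKR1B10 had too few counts in both lines to be tested.

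ALDH1A1, retinaldehyde dehydrogenase 1 and the main enzyme read by ALDH activity stains, had the largest difference of the members. It was at 0.91, 0.65 and 0.88 TPM in untreated Pa-Tu-8902 and at 451, 379 and 427 TPM in untreated MIA PaCa-2, a log2 fold difference of -9.26 (standard error 0.11, edgeR adjusted p = 2.61e-15). AKR1C1, a 20-alpha-hydroxysteroid dehydrogenase, was at 0.42, 0.23 and 0.48 TPM in Pa-Tu-8902 and at 164, 175 and 156 TPM in MIA PaCa-2, a log2 fold difference of -8.93 (standard error 0.21), or -9.68 without Pa-Tu-8902 untreated replicate 3. For both genes every MIA PaCa-2 library was far above every Pa-Tu-8902 library. AKR1B1, aldose reductase, was also lower in Pa-Tu-8902, at 0.80, 0.53 and 0.81 TPM against 33.5, 31.0 and 34.9 TPM, a log2 fold difference of -5.36 (standard error 0.14). AKR1C2, a 3-alpha-hydroxysteroid dehydrogenase, was at 0.05 to 0.30 TPM in Pa-Tu-8902 and at 0.66 to 2.30 TPM in MIA PaCa-2, a log2 fold difference of -4.47 (standard error 0.62). AKR1C2 entered the test only through the line where it was high, so the filter itself required a difference in counts.

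The members higher in Pa-Tu-8902 were all aldehyde dehydrogenases. ALDH3A1, which oxidises aromatic and lipid-derived aldehydes, was at 23.4, 20.3 and 23.3 TPM in untreated Pa-Tu-8902 and at 0.50, 0.46 and 0.48 TPM in untreated MIA PaCa-2, a log2 fold difference of 5.37 (standard error 0.14). ALDH1A3, retinaldehyde dehydrogenase 3, was high in both lines, at 422, 395 and 332 TPM in Pa-Tu-8902 and 96.2, 81.1 and 92.1 TPM in MIA PaCa-2, a log2 fold difference of 1.97 (standard error 0.07). ALDH2, the mitochondrial enzyme that clears acetaldehyde, was at 3.61, 3.33 and 3.22 TPM in Pa-Tu-8902, and its untreated MIA PaCa-2 libraries held 0, 4 and 4 counts. Its log2 fold difference was 5.61 (standard error 0.39), or 5.00 without MIA PaCa-2 untreated replicate 1, the library with 0 counts, and it too was tested only through its high line. AKR1C3, a 17-beta-hydroxysteroid dehydrogenase and prostaglandin F synthase, was not called between the untreated lines, with a log2 fold difference of 0.50 (standard error 0.24, edgeR adjusted p = 0.067), nor was AKR1A1, the general aldehyde reductase, at 0.05 (standard error 0.07, edgeR adjusted p = 0.563).

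**Figure D2:**
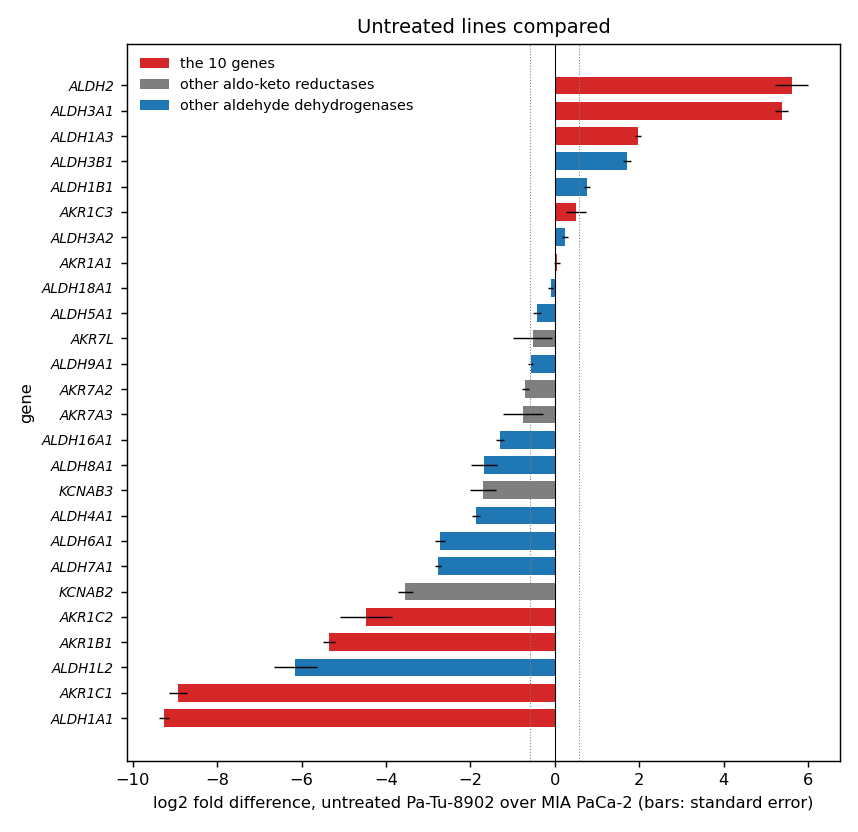
Log2 fold difference between the untreated lines (x axis, positive where Pa-Tu-8902 was higher; bars, edgeR estimates; error bars, standard error; dotted lines, a fold of 1.5) for 26 tested genes of both families (y axis), with members of the 10 in red. 18 of the 26 lie below 0, and ALDH1A1 and AKR1C1 lie furthest, at -9.26 and -8.93. AKR1E2 and ALDH3B2, with no counts in one line, are left out. AKR1C2, ALDH2 and ALDH1L2 are drawn but reached the count filter only in the line where they were high.

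In Pa-Tu-8902, 5 of the 9 members tested rose with dox and none fell (0 fell at an unadjusted p under 0.05 or by DESeq2), where 16.3% of all 14949 tested genes were called, 9.22% higher and 7.12% lower. Without AKR1B10, which reached the count filter only with dox, 4 of 8 rose. The 5 were AKR1B1, AKR1B10, AKR1C3, ALDH1A1 and ALDH3A1. The median log2 fold change was 1.10 over the 9 members and 0.65 without AKR1B10, against 0.00 over all tested genes. The groups did not overlap for 6 of the 9, where 58.5% of all tested genes had groups that did not overlap. In bulk libraries, a change in the share of cells that express a gene and a change in RNA per cell cannot be told apart.

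Among the aldo-keto reductases, AKR1C3 was at 1.83, 1.84 and 1.73 TPM in untreated Pa-Tu-8902 and at 8.70, 8.43 and 9.80 TPM with dox, and every dox library was above every untreated one. The log2 fold change was 2.21 (standard error 0.13, edgeR adjusted p = 3.10e-07), or 4.62-fold. AKR1B1 was at 0.80, 0.53 and 0.81 TPM without dox and at 1.89, 1.65 and 2.02 TPM with dox, a log2 fold change of 1.10 (standard error 0.24, edgeR adjusted p = 0.00288). The 3 dox libraries were again above the 3 untreated ones, but the call for AKR1B1 was lost without untreated replicate 2 (log2 fold change 0.91, edgeR adjusted p = 0.0140) or without dox replicate 3 (1.13, edgeR adjusted p = 0.0106).

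AKR1B10, a retinal and lipid aldehyde reductase, held 1, 4 and 0 counts in untreated Pa-Tu-8902 and 20, 47 and 30 counts with dox. These are 0.04, 0.27 and 0 TPM against 0.60, 1.08 and 1.07 TPM, so the groups did not overlap, and even the dox level was low beside the other called members. The fitted log2 fold change was 3.95 (standard error 0.60, edgeR adjusted p = 2.88e-04). It was 5.38 without untreated replicate 2, the library with 4 counts, and 3.28 with effective gene lengths as offsets. AKR1B10 passed the filter of 10 counts in 3 libraries only through the dox group, so the filter itself required a difference in counts. It was not tested once any 1 dox library was left out.

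AKR1A1 was at 60.8, 63.6 and 63.6 TPM without dox and at 70.7, 83.5 and 81.6 TPM with dox in Pa-Tu-8902. The TPM values did not overlap between the groups, whereas the normalized counts did, and the test on counts did not call it (log2 fold change 0.14, standard error 0.07, edgeR adjusted p = 0.118). AKR1C1 stayed between 0.23 and 0.52 TPM in the 6 Pa-Tu-8902 libraries and had a log2 fold change of 0.20 (standard error 0.55). AKR1C2, with at most 6.83 counts in any Pa-Tu-8902 library, was not tested.

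Among the aldehyde dehydrogenases of Pa-Tu-8902, ALDH1A1 had the largest fitted fold change. It was at 0.91, 0.65 and 0.88 TPM without dox and at 6.80, 5.40 and 6.38 TPM with dox. Every dox library was above every untreated library, with a log2 fold change of 3.06 (standard error 0.15, edgeR adjusted p = 9.75e-08), or 8.34-fold. The dox level was still below the lowest level of ALDH1A1 in untreated MIA PaCa-2, 379 TPM.

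ALDH3A1 was at 23.4, 20.3 and 23.3 TPM in untreated Pa-Tu-8902 and at 57.7, 60.0 and 59.8 TPM with dox. The groups lay apart, with a log2 fold change of 1.39 (standard error 0.06, edgeR adjusted p = 4.47e-08), and in TPM this was the largest gain among the members of this line that rose. ALDH1A3, the most abundant member, was at 422, 395 and 332 TPM without dox and at 427, 399 and 363 TPM with dox, and the groups overlapped (log2 fold change -0.01, standard error 0.05). ALDH2 was at 3.61, 3.33 and 3.22 TPM without dox and at 2.67, 2.89 and 2.71 TPM with dox. The dox libraries of ALDH2 were all lower, but the test did not call it (log2 fold change -0.23, standard error 0.12, edgeR adjusted p = 0.127).

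**Figure D3:**
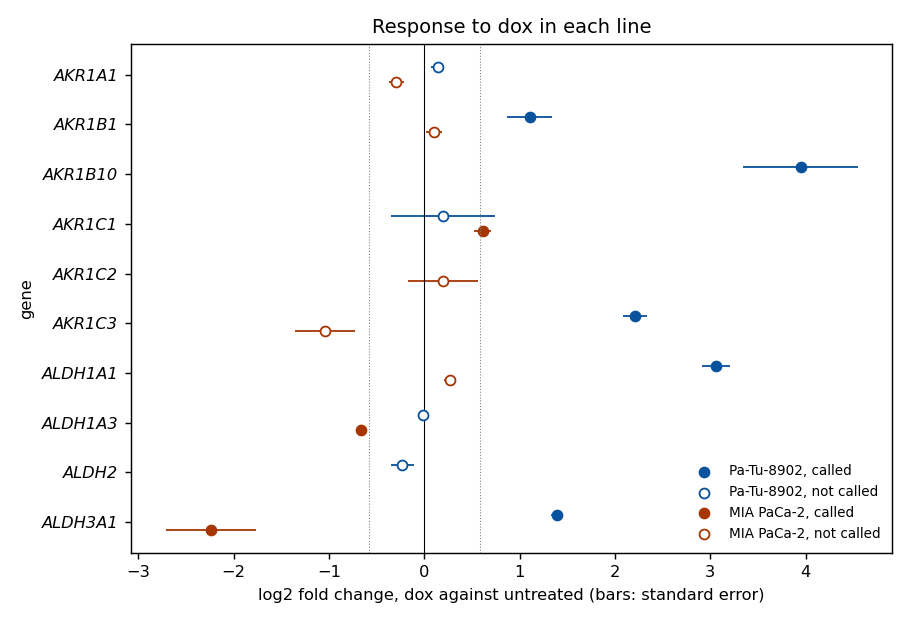
Log2 fold change with dox (x axis; points, edgeR estimates; bars, standard error; dotted lines, a fold of 1.5) of each tested gene (y axis) in Pa-Tu-8902 (blue) and MIA PaCa-2 (brown), with filled points for called genes. AKR1C3 and ALDH3A1 lie at 2.21 and 1.39 for Pa-Tu-8902 but at -1.04 and -2.24 for MIA PaCa-2, and ALDH1A1 lies at 3.06 and 0.27.

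In MIA PaCa-2, 3 of the 8 members tested were called, where 12% of all 14589 tested genes were called, 4.36% higher and 7.64% lower. Without ALDH3A1, which reached the count filter only in the untreated group, 2 of 7 were called. AKR1C1 rose, and ALDH1A3 and ALDH3A1 fell. The median log2 fold change was -0.10 over the 8 members and 0.10 without ALDH3A1, against -0.01 over all tested genes. The groups did not overlap for 6 of the 8, where 52.9% of all tested genes had groups that did not overlap.

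AKR1C1 was at 164, 175 and 156 TPM in untreated MIA PaCa-2 and at 257, 253 and 262 TPM with dox. The dox libraries were all above the untreated ones, with a log2 fold change of 0.61 (standard error 0.09, edgeR adjusted p = 2.10e-04). That is 1.53-fold, close to the limit of 1.5. The change was 0.57 on the log2 scale with effective gene lengths as offsets, and it was 0.54 to 0.71 with 1 library left out. It was below the limit without untreated replicate 1 (0.56), untreated replicate 3 (0.54) or dox replicate 3 (0.56).

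ALDH1A3 was at 96.2, 81.1 and 92.1 TPM in untreated MIA PaCa-2 and at 60.2, 65.1 and 54.9 TPM with dox, without overlap. Its log2 fold change was -0.66 (standard error 0.06, edgeR adjusted p = 1.05e-05). With limma on log2(TPM + 1) or log2(TPM + 0.1) it was -0.57 or -0.58, below the fold limit, so the call was lost. ALDH3A1, already scarce in this line, held 17, 19 and 15 counts without dox and 5, 3 and 2 counts with dox, a fitted log2 fold change of -2.24 (standard error 0.47, edgeR adjusted p = 0.00305). It passed the filter only through the untreated group, so the filter itself required a difference in counts. Its call was lost without dox replicate 2 (-2.25, edgeR adjusted p = 0.0117) or dox replicate 3 (-1.87, edgeR adjusted p = 0.0165), and it was not tested without any 1 untreated library.

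ALDH1A1, the most abundant member of MIA PaCa-2, was at 451, 379 and 427 TPM without dox and at 528, 515 and 527 TPM with dox. All 3 dox libraries were higher, and the adjusted p was 0.00345 by edgeR, but the log2 fold change of 0.27 (standard error 0.06) was below the fold limit, so it was not called. AKR1C3 was at 1.27, 2.10 and 1.60 TPM without dox and at 0.82, 0.45 and 0.77 TPM with dox. The 3 dox libraries of AKR1C3 were all lower (log2 fold change -1.04, standard error 0.31), with an edgeR adjusted p of 0.0199 that missed the threshold. In 1 fit of all 12 libraries AKR1C3 passed it (-1.03, edgeR adjusted p = 0.00229).

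AKR1A1 in MIA PaCa-2 had a log2 fold change of -0.29 (standard error 0.08, edgeR adjusted p = 0.0124) and was not called. AKR1B1 was at 33.5, 31.0 and 34.9 TPM without dox and at 40.8, 33.0 and 39.0 TPM with dox, with overlap and a log2 fold change of 0.10 (standard error 0.08). AKR1C2 ranged from 0.66 to 2.30 TPM without dox and from 1.72 to 2.31 TPM with dox, also with overlap (0.20, standard error 0.37). AKR1B10 held at most 3 counts and ALDH2 at most 4 counts in any MIA PaCa-2 library, and neither was tested.

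The response to dox differed between the lines for 5 of the 10 members by an interaction contrast of all 12 libraries, where 10.4% of all 16544 tested genes differed. In each of the 5 the log2 fold change was higher in Pa-Tu-8902. Of all tested genes, 6.56% differed in that direction and 3.86% in the other. The contrast compares fold changes, not gains in level. The mean level of ALDH1A1 went from 0.81 to 6.19 TPM in Pa-Tu-8902 and from 419 to 523 TPM in MIA PaCa-2. That of AKR1B1 went from 0.71 to 1.85 TPM and from 33.1 to 37.6 TPM. The mean levels of AKR1C3, ALDH3A1 and ALDH1A3 were lower with dox in MIA PaCa-2. AKR1C3 differed by 3.24 on the log2 scale (standard error 0.29, edgeR adjusted p = 3.57e-07), ALDH3A1 by 3.63 (standard error 0.35) and ALDH1A1 by 2.79 (standard error 0.14). AKR1B1 differed by 1.02 (standard error 0.21) and ALDH1A3 by 0.65 (standard error 0.08). The differences for AKR1C1 (-0.41, standard error 0.50), AKR1C2 (0.94, standard error 0.87) and ALDH2 (-0.46, standard error 0.71) had standard errors near or above their size. AKR1A1 differed by 0.44 (standard error 0.11, edgeR adjusted p = 0.00841), a 1.35-fold difference below the fold limit, so it was not called. For AKR1B10 no size is given, since MIA PaCa-2 held at most 3 counts in any library. It narrowly missed the threshold (edgeR adjusted p = 0.0113) and was called in 6 of 18 alternatives.

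With dox, the summed level of the 10 genes was 527 to 577 TPM in Pa-Tu-8902 and 913 to 938 TPM in MIA PaCa-2, in each line above the untreated range. In Pa-Tu-8902 the share of ALDH1A3 went from 77.9% to 82.1% down to 68.9% to 74.0%, and that of ALDH3A1 from 4.18% to 5.46% up to 10.0% to 11.3%. In MIA PaCa-2 the share of AKR1C1 went from 20.3% to 24.3% up to 27.4% to 28.1%, and that of ALDH1A3 from 11.3% to 12.03% down to 5.88% to 7.14%. ALDH1A1 kept a share of 56.3% to 56.4% with dox, at the top of its untreated range. With dox, none of the 9 neighbours in the order of levels overlapped in Pa-Tu-8902, where AKR1C3 and ALDH1A1 now stood above ALDH2, and 1 of 9 overlapped in MIA PaCa-2.

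**Figure D4:**
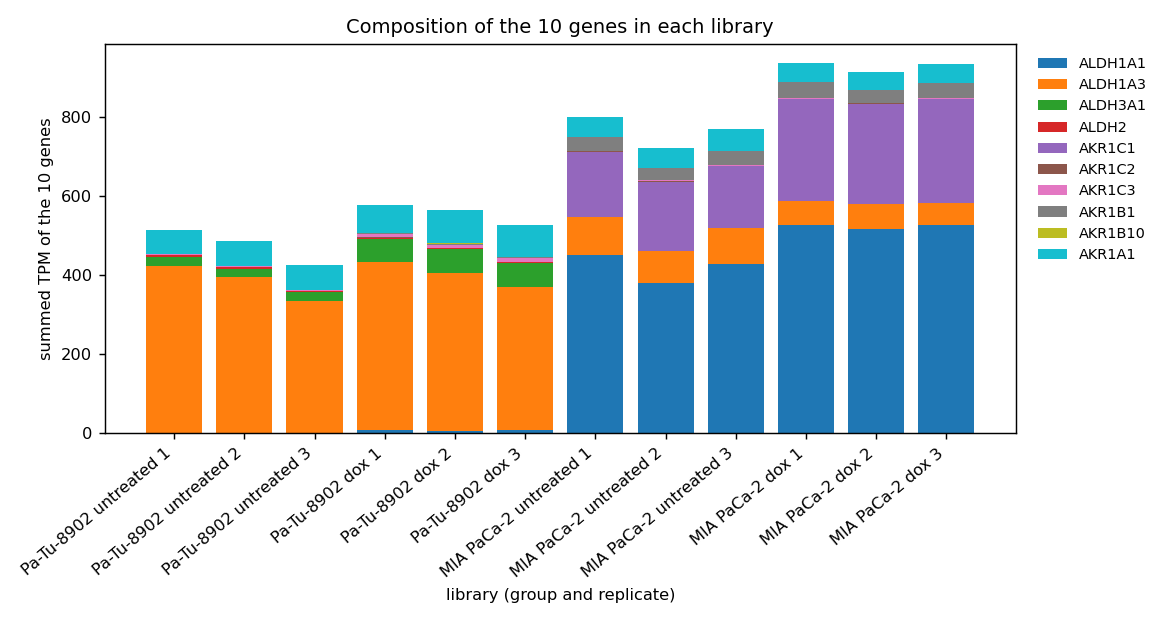
Summed TPM of the 10 genes (y axis) in each library (x axis), with each gene's part in its own colour. ALDH1A3 fills 68.9% or more of every Pa-Tu-8902 bar, and ALDH1A1 and AKR1C1 fill most of every MIA PaCa-2 bar, with totals of 913 to 938 TPM after dox.

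AKR1C1, AKR1C2 and AKR1C3 lie side by side on chromosome 10 and are near copies, so reads can be shared between them. The coding sequences of AKR1C1 and AKR1C2 were 98.04% identical over 969 bases, and those of AKR1C1 and AKR1C3 were 91.43% identical. Of all 150-base windows of the AKR1C1 coding sequence, 4.63% also occurred in AKR1C2 and 0% in AKR1C3. The stretch of coding positions 111 to 140, in exon 2, is shown because it is a place where the 3 genes can be told apart. Capitals mark the 8 positions at which they are not all alike, 6 of which differ between AKR1C1 and AKR1C2 (GRCh38, coding strand, 5′ to 3′).
AKR1C1, chr10:4965940-4965969, plus strand: cACCaaattGgcaatTgaagcTggCttccG
AKR1C2, chr10:5001626-5001655, minus strand: cGTCaaattGgcaatAgaagcCggGttccA
AKR1C3, chr10:5096436-5096465, plus strand: cACAaaattAgcaatAgaagcTggGttccG

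The counts of AKR1C1 were not whole in 8 of the 12 libraries, those of AKR1C2 in 10 and those of AKR1C3 in 8 (tolerance 0.001), as the authors' estimate splits reads that fit more than 1 gene. The counts of ALDH2 were not whole in 3 libraries, and those of the other 6 members were whole in all 12. With the counts of the 3 AKR1C genes added together, the log2 fold change with dox was 1.97 in Pa-Tu-8902 against 0.60 in MIA PaCa-2, and the untreated lines differed by -6.48. AKR1C1 made up nearly all of that sum in MIA PaCa-2 (4693 to 5654 counts untreated, against 20.1 to 74.2 of AKR1C2). AKR1C3 made up most of it in Pa-Tu-8902 with dox (217 to 308 counts, against 9.24 to 19 of AKR1C1). The sum was thus bound to follow these genes and cannot show how reads were split. AKR1C3 in MIA PaCa-2 (log2 fold change -1.04, not called) does not show in it. The low AKR1C2 values next to the abundant AKR1C1 of MIA PaCa-2 remain uncertain.

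In the authors' transcript estimates, AKR1C1-203, a coding transcript, took 69.1% to 71.3% of the AKR1C1 level in untreated MIA PaCa-2 and 70.3% to 71.8% with dox. AKR1C1-205, annotated as a processed transcript without a coding sequence, took 18.9% to 23.6% and then 19.0% to 19.6%. The AKR1C1 transcripts therefore kept near their proportions while the gene rose. In Pa-Tu-8902, AKR1C3-201 and AKR1C3-202, both coding, each held at least 31.0% of the AKR1C3 level in every library. The low ALDH2 level of Pa-Tu-8902 with dox was assigned to ALDH2-203, a transcript marked for nonsense-mediated decay, by 48.3% to 79.0%.

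The members lie at these places in GRCh38. AKR1A1 is on chromosome 1 (45550543 to 45570049, plus strand). AKR1B1 (134442356 to 134459284, minus strand) and AKR1B10 (134527567 to 134541412, plus strand) are neighbours on chromosome 7. On chromosome 10 are AKR1C1 (4963253 to 4983283, plus strand), AKR1C2 (4987775 to 5018031, minus strand) and AKR1C3 (5035354 to 5107686, plus strand). ALDH1A1 is on chromosome 9 (72900671 to 73080442, minus strand), ALDH1A3 on chromosome 15 (100877714 to 100916626, plus strand), ALDH2 on chromosome 12 (111766887 to 111817532, plus strand) and ALDH3A1 on chromosome 17 (19737984 to 19748943, minus strand).

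Other genes of both families were read in the same fits. Over all tested genes, 9.22% rose and 7.12% fell with dox in Pa-Tu-8902, and 4.36% rose and 7.64% fell in MIA PaCa-2. Of 10 other aldo-keto reductases, 5 were tested in Pa-Tu-8902 against 6 in MIA PaCa-2, and none was called with dox in either line by edgeR or DESeq2. At an unadjusted p under 0.05, 0 passed in the first line and 1, lower, in the second. Of 15 other aldehyde dehydrogenases, 13 were tested in Pa-Tu-8902, of which 3 rose with dox and none fell by edgeR or DESeq2 (8 higher and 1 lower at an unadjusted p under 0.05), and the median log2 fold change was 0.56. ALDH3B2 rose by 1.35 on the log2 scale (standard error 0.19), ALDH6A1, of valine breakdown, by 0.81 (standard error 0.12) and ALDH3A2, the fatty aldehyde dehydrogenase, by 0.63 (standard error 0.05). In MIA PaCa-2, 12 were tested, 3 fell and none rose by edgeR or DESeq2 (2 higher and 5 lower at an unadjusted p under 0.05), with a median of -0.12. The 3 were the mitochondrial folate enzyme ALDH1L2 (log2 fold change -2.44, standard error 0.43), the succinate semialdehyde dehydrogenase ALDH5A1 (-1.15, standard error 0.09) and the lysine-pathway enzyme ALDH7A1 (-0.65, standard error 0.06). The response differed between the lines for 4 of the 14 tested, all with the higher log2 fold change in Pa-Tu-8902. In that direction 6.56% of all tested genes differed.

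**Figure D5:**
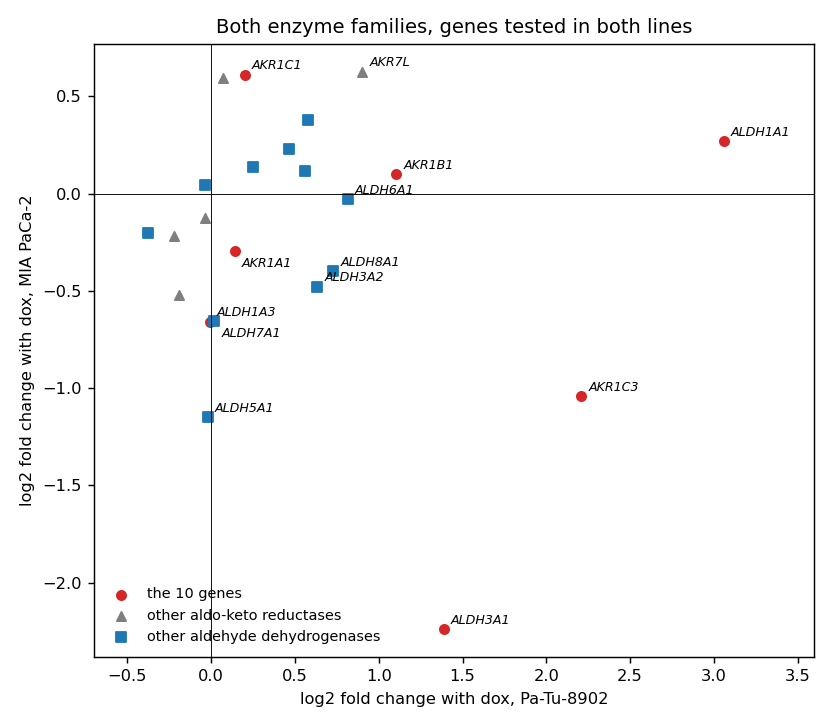
Log2 fold change with dox in Pa-Tu-8902 (x axis) against that in MIA PaCa-2 (y axis) for genes of both families tested in both lines, 7 of the 10 genes (red), 5 other aldo-keto reductases (grey) and 11 other aldehyde dehydrogenases (blue). ALDH1A1, AKR1C3 and ALDH3A1 lie furthest right, at 3.06, 2.21 and 1.39, and ALDH3A1 lies lowest, at -2.24.

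Between the untreated lines, 4 of 6 tested other aldo-keto reductases were lower in Pa-Tu-8902, and 0 were higher by edgeR, by DESeq2 or at an unadjusted p under 0.05. Over all tested genes, 28.9% were called higher and 29.3% lower in Pa-Tu-8902. KCNAB2, a potassium channel beta subunit of the same fold, was lower by a log2 fold difference of -3.54 (standard error 0.17), and AKR1E2 was at least 40.9-fold lower, having 0 counts in all untreated Pa-Tu-8902 libraries (floor of 3 counts a library). Of the 13 other aldehyde dehydrogenases tested, 3 were higher and 6 lower in Pa-Tu-8902. ALDH1L2 among the lower and ALDH3B2 among the higher reached the count filter only in the line where they were high, as did AKR1E2. ALDH7A1 differed by -2.77 (standard error 0.07) and ALDH3B2, with 0 counts in all untreated MIA PaCa-2 libraries, was at least 10.6-fold higher.

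Other enzymes that act on carbonyl compounds or alcohols were read as well. Among all tested genes, 9.22% rose and 7.12% fell with dox in Pa-Tu-8902, and 4.36% rose and 7.64% fell in MIA PaCa-2. In Pa-Tu-8902, 2 of 11 tested rose with dox, and 0 fell by edgeR or DESeq2 (2 lower at an unadjusted p under 0.05). They were DHRS2 (log2 fold change 0.96, standard error 0.13) and PTGR2 (0.59, standard error 0.07). In MIA PaCa-2, 1 of 12 rose, ADHFE1 (1.41, standard error 0.33; 0 by DESeq2), and 4 fell, among them DHRS7 (-1.04, standard error 0.10), PTGR1 (-0.97, standard error 0.07) and CBR3 (-0.96, standard error 0.16). CBR1, carbonyl reductase 1, had 0 counts in the untreated Pa-Tu-8902 libraries and was at least 517-fold lower than in MIA PaCa-2.

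ALDH1A1 and ALDH1A3 feed the retinoic acid pathway. With dox, 9.22% of all tested genes rose and 7.12% fell in Pa-Tu-8902, and 4.36% rose and 7.64% fell in MIA PaCa-2. In Pa-Tu-8902, 1 of 12 tested retinoid genes rose, CYP26B1, which breaks retinoic acid down (log2 fold change 1.37, standard error 0.27). The receptor RARG was the 1 that fell (-0.70, standard error 0.06). In MIA PaCa-2, 2 of 11 rose, CYP26B1 (1.71, standard error 0.31) and the retinoic acid target TGM2 (1.67, standard error 0.07), and 1 fell, RARG (-0.74, standard error 0.06). Between the untreated lines 8 of 13 tested retinoid genes were higher and 2 lower in Pa-Tu-8902. Of all tested genes, 28.9% were higher and 29.3% lower. TGM2 differed by 4.94 (standard error 0.10) and the retinol uptake receptor STRA6 by -8.69 (standard error 0.32), with STRA6 tested only through its high line.

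Of NRF2 genes and targets outside the 10, 27 were read, all tested in both lines. With dox in Pa-Tu-8902, 7 rose and 1 fell, where 9.22% of all tested genes rose and 7.12% fell. The median log2 fold change of the 27 was 0.09. The gene that fell was the cystine transporter SLC7A11 (log2 fold change -0.73, standard error 0.06), named here beside its value in MIA PaCa-2. HMOX1, heme oxygenase, rose by 2.92 on the log2 scale (standard error 0.10) and the drug and bile acid exporter ABCC3 by 2.47 (standard error 0.11). In MIA PaCa-2, 2 rose and 3 fell, with a median of 0.09, where 4.36% of all tested genes rose and 7.64% fell. HMOX1 rose (1.78, standard error 0.07), whereas SLC7A11 fell (log2 fold change -1.45, standard error 0.14), as did FTL, ferritin light chain (-1.20, standard error 0.07), and TXNRD1, thioredoxin reductase (-1.16, standard error 0.06). The core letters of the antioxidant response element, TGACNNNGC, occurred on either strand in 13.35% of 35116 RefSeq promoters (GRCh38.p14, windows around the start of each gene) and in 0 of the 7 members present in that table. The looser form TGANNNNGC, which contains it, occurred in 41.84% of all promoters and in those of AKR1C1, AKR1C2 and ALDH1A1. AKR1B10, ALDH2 and ALDH3A1 were the members not in the table. With only 7 members, neither count can be told apart from the share over all promoters. Sites outside these windows were not searched.

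The pattern over the 12 libraries was compared between the called members with a mean CPM of at least 1 and the other genes among 13366. This leaves out AKR1B10 and AKR1C2. The measure was the root mean square difference of gene-centred log2(normalized CPM + 1). The added 1 shrinks differences at low levels, as for ALDH2 (mean 4.28 CPM in untreated Pa-Tu-8902 and 0.09 in untreated MIA PaCa-2). Closeness to such a gene therefore says little about a shared pattern. Nearest to AKR1C3 were HLA-DPA1 (0.20) and PLIN4 (0.21), and nearest to ALDH3A1 were FRMD3 (0.16) and MPP7 (0.21). Nearest to AKR1B1 were SMARCD3 (0.13) and P3H1 (0.14), to AKR1C1 LINC02154 (0.21) and EPHA4 (0.25), and to ALDH1A3 FAM111A (0.09) and ACOT11 (0.09). Nearest to ALDH2 were MCRS1 (0.07) and HDAC7 (0.08), while ALDH1A1 had no gene nearer than EEF1A2, at 0.71.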

How the data were processed

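Poly(A) RNA of 12 libraries was sequenced as paired-end, strand-specific reads, and libraries were assigned to groups by their titles. The authors trimmed reads with Trimmomatic 0.39 and estimated levels with RSEM 1.3.1 calling STAR 2.5.2a, on GRCh38 with a GENCODE annotation. They deposited expected counts, TPM and FPKM values per gene, with no filter, and effective gene lengths. Of the expected counts, 5.34% were not whole and each was rounded. TPM was used for levels, FPKM only to repeat the order of levels, transcript TPM for isoform shares, and effective lengths in an alternative. The other isoform columns were not used here.

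After TMM normalization, edgeR 4.0.16 (glmQLFit, glmQLFTest; R 4.3.3) tested the genes that reached 10 counts in 3 or more of a comparison's libraries. Calls needed a p adjusted by Benjamini-Hochberg under 0.01 with a fold of 1.5 or more, the study's thresholds. The study used DESeq2, which was an alternative here (1.42.0), as was limma 3.58.1 on log2(TPM + 1) and log2(TPM + 0.1). Each line was fitted alone, as were the untreated libraries, and the difference of the responses was an interaction contrast over 12 libraries. Comparisons within a line and between untreated lines share the untreated libraries. Standard errors are the absolute log2 fold change over the square root of F. Nothing says that replicates came from separate cultures, so p-values measure the spread between these libraries, which may be technical. An exact permutation test of 3 against 3 libraries cannot give a p below 0.1, so none is printed.

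Named genes are the 10 members, GOT1, at most 4 called genes of each related list with the largest change in a comparison, and the 2 most alike genes of each called member. The members and lists were chosen with earlier results of these data known. GENCODE release 44, also on GRCh38, gave positions and coding sequences by Ensembl identifier. A supplementary table of the study names some columns for Pa-Tu-8902 whose counts are those deposited under MIA PaCa-2 titles, and the titles were followed. The pipeline was tested on simulated data. Total counts were 26226537 to 43406137 per library.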

Additional observations from a re-analysis of the deposited data

Results flagged for a closer look

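For 5 genes the interaction contrast over the 12 libraries found that the response to dox differed between the lines (edgeR, Benjamini-Hochberg adjusted), and each difference below is the log2 fold change in Pa-Tu-8902 minus that in MIA PaCa-2. ALDH3A1 differed by 3.63 (adjusted p = 6.38e-07), from a rise in Pa-Tu-8902 and a fall in MIA PaCa-2 that rests on 2 to 19 counts a library. AKR1C3 differed by 3.24 (adjusted p = 3.57e-07), from a rise in Pa-Tu-8902 and a log2 fold change of -1.04 in MIA PaCa-2 that was not called. ALDH1A1 differed by 2.79 (adjusted p = 3.56e-10), with all dox libraries above the untreated ones in both lines. AKR1B1 differed by 1.02 (adjusted p = 0.00142), and its untreated level was 41.0-fold lower in Pa-Tu-8902. ALDH1A3 differed by 0.65 (adjusted p = 1.08e-05), from a fall in MIA PaCa-2 and overlapping groups in Pa-Tu-8902.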

How the results depend on the processing

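The alternatives were DESeq2, its size factors in edgeR, no filter, a filter of 10 counts in every library, effective lengths, limma on TPM, 1 fit of all libraries, other thresholds, summed paralogs, FPKM for the order of levels, a replicate block and each library left out. Libraries that share a replicate number did not deviate together (correlations of -0.25 to 0.31 over 6 pairs), so they were not treated as pairs. With a replicate block the members called numbered 5 for Pa-Tu-8902, 3 for MIA PaCa-2, 7 between untreated lines and 5 for the difference of responses, and no call of a member changed. With 10 counts required in every library, 4 members were called for Pa-Tu-8902, 2 for MIA PaCa-2, 4 between the untreated lines and 3 for the difference of responses, since fewer genes were tested. With 1 library left out, 3 to 5 members were called in Pa-Tu-8902 (3 without dox replicate 3), 1 to 3 in MIA PaCa-2 (1 without untreated replicate 1, untreated replicate 3 or dox replicate 3), 6 between the untreated lines, and 5 to 6 for the difference.

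Reversed values belong to members that were not called. In Pa-Tu-8902 the log2 fold change of ALDH1A3 was 0.0014 with 10 counts in every library, 0.053 with limma on either TPM scale and 0.0039 in 1 fit of 12 libraries, and -0.022 to 0.021 with 1 library left out, above 0 without untreated replicate 1, dox replicate 2 or dox replicate 3. That of AKR1C1 was -0.21 to 0.44 with 1 library left out, below 0 without untreated replicate 2. For MIA PaCa-2, AKR1C2 was at -0.18 to 0.70, below 0 without untreated replicate 3. Between the untreated lines AKR1A1 was at -0.012 to 0.17, below 0 without MIA PaCa-2 untreated replicate 1. For the difference of responses, ALDH2 was at 0.0087 with effective lengths and at -0.87 to 0.14 with 1 library left out (0.14 without MIA PaCa-2 untreated replicate 1), AKR1C2 at -0.077 with limma on log2(TPM + 1), and AKR1C1 at -0.83 to 0.39 (0.39 without Pa-Tu-8902 untreated replicate 3). The cause was not tested. Calls of ALDH1A3 and ALDH3A1 in MIA PaCa-2 and of AKR1B1 in the difference were lost with limma on log2(TPM + 1), at -0.57, -0.42 and 0.56, and that of ALDH1A3 also with log2(TPM + 0.1), at -0.58. At counts under 20, as for AKR1B10, AKR1C2 and ALDH2 in one or both lines, depth limits what can be seen.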
